A study of Mus musculus with 4 samples.

Results

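Transcript levels of 10 enzymes of serine synthesis and folate-bound one-carbon metabolism were compared between mouse astrocytes given a Phf8 shRNA and astrocytes given a control shRNA. The enzymes were named by gene symbol (Phgdh, Psat1, Psph, Shmt1, Shmt2, Mthfd1, Mthfd2, Mthfd1l, Aldh1l1 and Aldh1l2), and all 10 were found among the 55421 genes of the count files. All 10 also passed the filter on low counts, as did 21042 genes in all. The cells were astrocytes differentiated in medium with fetal bovine serum from neural stem cells of the C57BL/6J strain. They were infected with a lentivirus that expressed either the control shRNA (2 samples) or the Phf8 shRNA (2 samples), so every sample carried a virus and an shRNA. Phf8 encodes a histone demethylase, and an shRNA is a hairpin RNA that the cell processes into a small RNA directed against its target transcript. Samples of a group are called biological replicates in the design text, but nothing says that they were separate cultures or infections. The p-values therefore reflect the spread of 2 samples in each group, and that spread may be technical.

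Cells make serine from a glycolytic intermediate in 3 steps. Phgdh oxidises phosphoglycerate, Psat1 transfers an amino group to the product from glutamate, and Psph removes the phosphate. Serine hydroxymethyltransferases (Shmt1 in the cytosol, Shmt2 in mitochondria) then split serine into glycine and a one-carbon unit carried by tetrahydrofolate. Enzymes of the Mthfd family oxidise or reduce that unit and convert it to or from formate, and the Aldh1l enzymes release it from formyl-tetrahydrofolate as carbon dioxide. The units feed purine, thymidylate and methionine synthesis. In the brain this pathway is known mainly from astrocytes, which supply serine to neurons, and Aldh1l1 is widely used as an astrocyte marker.

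Promoter sequences are shown for 3 members, namely both highly expressed enzymes that changed in opposite directions (Phgdh and Psat1) and the member with the largest change (Mthfd2). Each is the 250 bases before the start site in RefSeq, on build GRCm38.p6, 5′ to 3′ on the gene's strand, which is the minus strand for all of them. The window of Phgdh is chr3:98339970-98340219, that of Psat1 is chr19:15925060-15925309 and that of Mthfd2 is chr6:83317605-83317854. Capitals mark the letters CCAAT, the box bound by the general factor NF-Y, on either strand (ATTGG on the other strand).
Phgdh: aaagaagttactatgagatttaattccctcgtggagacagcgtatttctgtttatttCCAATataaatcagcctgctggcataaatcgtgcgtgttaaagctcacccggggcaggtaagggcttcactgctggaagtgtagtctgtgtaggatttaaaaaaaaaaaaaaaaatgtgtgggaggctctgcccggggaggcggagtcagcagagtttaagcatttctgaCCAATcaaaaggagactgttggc
Psat1: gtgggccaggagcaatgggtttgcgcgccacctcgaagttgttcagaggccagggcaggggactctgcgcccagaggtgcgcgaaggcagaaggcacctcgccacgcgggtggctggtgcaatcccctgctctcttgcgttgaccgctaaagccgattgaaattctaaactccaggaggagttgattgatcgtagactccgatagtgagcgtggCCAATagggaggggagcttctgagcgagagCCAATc
Mthfd2: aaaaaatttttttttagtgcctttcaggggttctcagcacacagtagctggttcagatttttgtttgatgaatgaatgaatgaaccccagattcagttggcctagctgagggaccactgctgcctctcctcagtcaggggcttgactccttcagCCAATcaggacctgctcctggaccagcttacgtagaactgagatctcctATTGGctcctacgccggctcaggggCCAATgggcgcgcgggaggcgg
The start site of Phgdh lay 21 bases from the gene's start as listed in the files, whereas those of Psat1 and Mthfd2 lay 22278 and 8304 bases inside it. RefSeq held 2 start sites for Psat1, and the one nearer to the gene's listed start is shown. A promoter was found for 9 of the 10 members, and Aldh1l2 had no entry. CCAAT was present on either strand in 7 of the 9 windows, 2 times in those of Phgdh and Psat1 and 3 times in that of Mthfd2. Of all 32851 promoter windows of this length, 33.8% held it. The letters TGATGNAA, a core of the composite element bound by ATF4 with C/EBP factors, were searched on both strands and occurred in 0 of the 9 windows and in 3.45% of all windows. The GC box GGGCGG was present in 5 of the 9 windows and in 32.7% of all windows. The E-box CACGTG, which MYC can bind, was present in 0 of the 9 and in 6.02% of all. A match is only a run of letters, and these counts say nothing about binding.

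Reads assigned to genes numbered 36839530 to 44724759 per library. Levels are given as CPM, which sets a gene's reads against the total of the library they came from, with edgeR's TMM scaling between libraries. Levels of different genes are compared only as RPKM, the same value per kilobase of exon. Phf8 itself stood at 53.3 and 53.0 CPM in the control libraries and at 44.3 and 42.3 CPM in the Phf8 shRNA libraries. It fell by 18.5%, with a log2 fold change of -0.30 ± 0.06 (SE) and an edgeR adjusted p of 1.72e-06. Of all genes tested, 52.1% were called at an adjusted p under 0.05, 24.8% as higher and 27.3% as lower, and in 73.9% the groups did not overlap. The share of calls in the higher direction depended on the scaling, at 47.7% under TMM, 58.0% under the upper quartile and 40.3% under the bare library size. Mitochondrial ribosomal RNA made up 21.2% to 22.5% of the reads in the control and 27.8% to 28.2% in the Phf8 shRNA libraries.

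Fewer cells of a type and less RNA per cell cannot be told apart in bulk RNA, so marker levels were examined first. All 12 astrocyte markers listed were detected and tested, with 5 higher and 6 lower. Gfap, the astrocyte intermediate filament, fell 3.39-fold, and the glutamate transporter Slc1a2 rose 7.20-fold. Markers of other cells that the culture could hold moved as well. Of 14 oligodendrocyte lineage markers 13 were tested, 12 rose and 0 fell, and the summed level went from 756 to 803 CPM in the control to 1297 to 1344 CPM in the Phf8 shRNA libraries. Of 14 neuron markers 10 were tested, 9 rose and 0 fell (summed level 1167 to 1207 against 1929 to 1932 CPM). Map2 held most of that sum, with 902 and 936 CPM in the control and 1390 and 1379 CPM in the Phf8 shRNA libraries. Of 9 neural progenitor markers 4 rose and 4 fell, with a summed level of 7315 to 7476 against 3391 to 3702 CPM. The fall of that sum follows mainly 1 abundant gene, Vim. Vim alone had 5385 and 5192 CPM in the control and 1354 and 1192 CPM in the Phf8 shRNA libraries. Nes fell as well, from 1022 and 1062 to 217 and 213 CPM, while Fabp7 rose from 421 and 416 to 1281 and 1138 CPM. All 7 ependymal markers tested (of 8) fell, from a sum of 242 to 250 down to 34.9 to 36.5 CPM. The 12 microglia markers summed to 13.2 to 17.5 CPM, with C1qa, C1qb and Trem2 at 0 reads in every library, and of the 5 tested 2 fell and 0 rose. Endothelial and mural markers summed to 26.6 to 28.8 CPM (Cdh5 at 0 reads), and of the 9 tested (of 12) 4 fell and 1 rose. Fibroblast markers summed to 24.3 to 28.2 CPM, and of the 4 tested (of 8) 2 fell and 1 rose. In both of these lists the gene that rose was Pdgfrb, a growth factor receptor, with 9.55 and 9.53 CPM in the control and 23.8 and 24.0 CPM in the Phf8 shRNA libraries, so their sums stayed level while other members fell. The part of these cell types in the results below was not tested.

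The transcripts of the serine synthesis enzymes went in different directions, and the middle step fell by about as much as any member rose. Psat1, the aminotransferase of the second step (ENSMUSG00000024640, chromosome 19, 15904678 to 15947337, minus strand), stood at 200.1 and 198 CPM in the control libraries and at 103 and 95.6 CPM in the Phf8 shRNA libraries. Both Phf8 shRNA values lay far below both control values. This was a 2.00-fold fall (log2 fold change -0.999 ± 0.06 SE, edgeR adjusted p = 2.35e-68), and 27.3% of all called genes had a larger absolute change. Phgdh, the first and committed step (ENSMUSG00000053398, chromosome 3, 98313170 to 98339990, minus strand), went the other way, from 142 and 133 CPM to 210.4 and 194 CPM. Both Phf8 shRNA libraries were higher than both control libraries. The rise was 47.5% (log2 fold change 0.56 ± 0.06 SE, edgeR adjusted p = 1.72e-22). Psph, the phosphatase of the last step (ENSMUSG00000029446, chromosome 5, 129765558 to 129787449, minus strand), stood at 25.3 and 24.7 CPM in the control and at 30.0 and 28.9 CPM in the Phf8 shRNA libraries. Its groups did not overlap, and it rose by 17.8% (log2 fold change 0.24 ± 0.07 SE, edgeR adjusted p = 0.00107).

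Copies or an overlapping gene touch each of these 3 values. Psat1 had 1 similar transcript, of the processed pseudogene Gm12611, which was assigned 3 reads over all libraries. Transcripts of 17 annotated pseudogenes resembled that of Phgdh at 90% identity or more over at least 200 bases, and reads that fit several of them may have been dropped or split in counting. The pseudogenes together were assigned 1.76% and 1.79% as many reads as Phgdh in the control and 1.95% and 1.75% in the Phf8 shRNA libraries. Their share was therefore alike in both groups. The exons of Psph overlapped those of Cct6a, on the opposite strand, over 10.4% of their length. Cct6a, a chaperonin subunit, had 6147 and 6219 control and 5619 and 4295 Phf8 shRNA reads, against 1096, 1012, 1298 and 1062 for Psph. No source used here states whether counting used the strand, so reads in that stretch are uncertain.

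**Figure D1:**
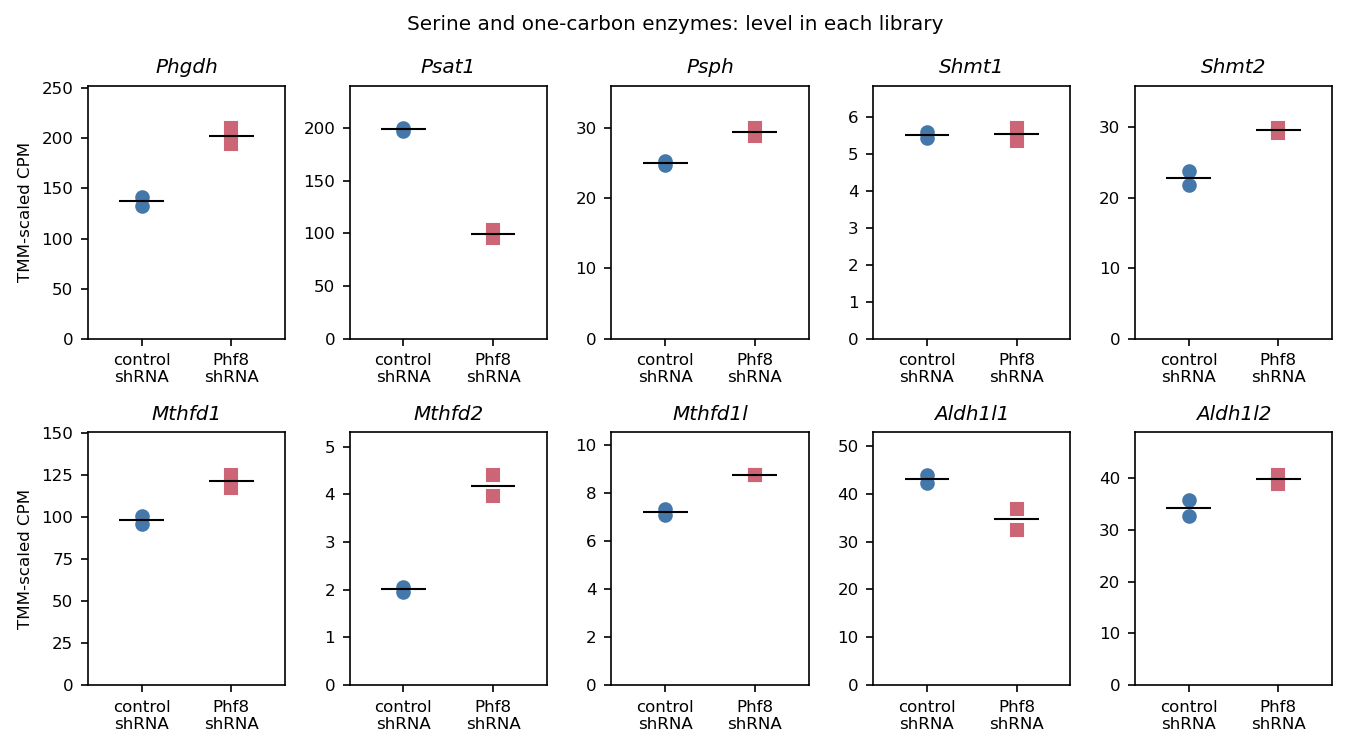
Level of each of the 10 enzymes (TMM-scaled CPM, vertical axis from 0, own scale per panel) in the 2 control shRNA libraries (circles) and the 2 Phf8 shRNA libraries (squares), with the group mean as a line. Psat1 sits near 200.1 and 198 CPM in control and near 103 and 95.6 CPM with the Phf8 shRNA, while Phgdh goes up and the groups of Shmt1 overlap.

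Of both serine hydroxymethyltransferases, the mitochondrial one rose. Shmt2 (ENSMUSG00000025403, chromosome 10, 127517123 to 127522444, minus strand) was at 21.8 and 23.8 CPM in the control and at 29.9 and 29.3 CPM in the Phf8 shRNA libraries. The groups did not overlap, and the rise was 30.1% (log2 fold change 0.38 ± 0.07 SE, edgeR adjusted p = 8.39e-08). Shmt1, the cytosolic enzyme (ENSMUSG00000020534, chromosome 11, 60788104 to 60811718, minus strand), stood at 5.62 and 5.45 CPM in the control and at 5.71 and 5.37 CPM in the Phf8 shRNA libraries. Its groups overlapped fully. The log2 fold change was 0.00 ± 0.12 (SE), with an edgeR adjusted p of 0.985 and a 95% confidence interval from -0.23 to 0.24, that is from 0.853-fold to 1.18-fold. With 197 to 247 reads per library, Shmt1 had fewer reads than any member but Mthfd2.

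All 3 Mthfd members rose, and Mthfd2 rose most of all 10 enzymes. Mthfd2, the mitochondrial dehydrogenase and cyclohydrolase best known from embryonic and proliferating cells (ENSMUSG00000005667, chromosome 6, 83305691 to 83325908, minus strand), was the member with the lowest level. It had 89 and 80 reads in the control and 171 and 162 in the Phf8 shRNA libraries, or 2.06 and 1.96 against 3.95 and 4.41 CPM. Both Phf8 shRNA libraries were clearly above both controls, and the rise was 2.08-fold (95% confidence interval 1.67 to 2.58, log2 fold change 1.05 ± 0.16 SE, edgeR adjusted p = 2.66e-10). Mthfd1, the trifunctional enzyme of the cytosol (ENSMUSG00000021048, chromosome 12, 76255298 to 76319803, plus strand), went from 100.5 and 95.6 CPM to 125 and 118 CPM. Again the groups did not overlap, and the log2 fold change was 0.31 ± 0.06 (SE, edgeR adjusted p = 1.34e-07). Mthfd1l, the mitochondrial formate-tetrahydrofolate ligase (ENSMUSG00000040675, chromosome 10, 3973118 to 4167081, plus strand), stood at 7.33 and 7.09 CPM in the control and at 8.76 and 8.77 CPM in the Phf8 shRNA libraries. Its log2 fold change of 0.28 ± 0.10 (SE) passed at an edgeR adjusted p of 0.0118. That call was lost with DESeq2 (adjusted p = 0.12), with the library size alone (edgeR adjusted p = 0.0543) and without either control library (edgeR adjusted p = 0.0528 and 0.0869).

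The Aldh1l enzymes differed in direction. Aldh1l1, the cytosolic dehydrogenase and astrocyte marker (ENSMUSG00000030088, chromosome 6, 90486427 to 90600203, plus strand), stood at 44.0 and 42.2 CPM in the control libraries. In the Phf8 shRNA libraries it stood at 36.7 and 32.5 CPM, below both controls. It fell by 19.5% (log2 fold change -0.31 ± 0.06 SE, edgeR adjusted p = 1.11e-06). Aldh1l2, the mitochondrial counterpart (ENSMUSG00000020256, chromosome 10, 83487450 to 83534140, minus strand), was at 35.7 and 32.8 CPM in the control and at 38.9 and 40.7 CPM in the Phf8 shRNA libraries. It rose by 16.1% (log2 fold change 0.22 ± 0.06 SE, edgeR adjusted p = 0.00125), and without control replicate 2 it did not pass (log2 fold change 0.16, edgeR adjusted p = 0.0786). Its exons overlapped D10Wsu102e, on the opposite strand, over 14.1% of their length, and that gene had 6377 to 6854 reads per library against 1340 to 1682 for Aldh1l2. For Aldh1l1 the overlap was 11.1%, with an antisense transcript of 2 to 3 reads per library.

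**Figure D2:**
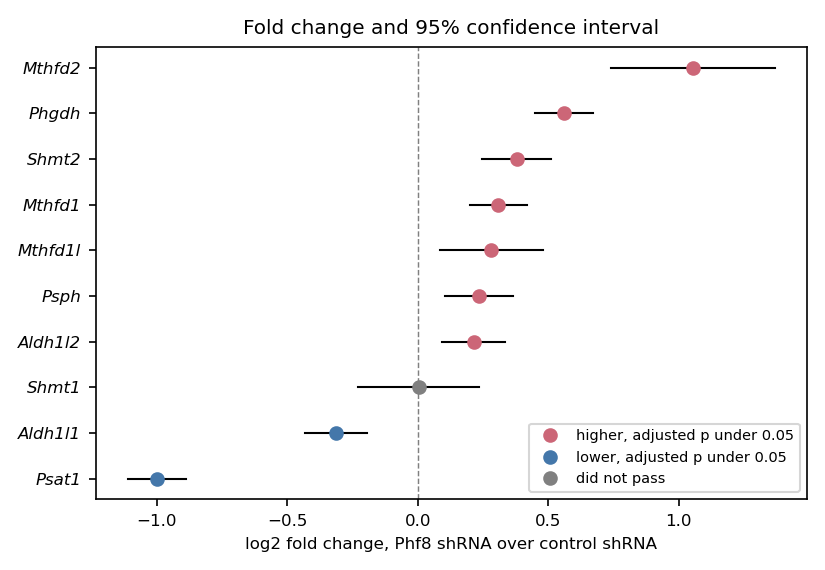
Log2 fold change of Phf8 shRNA over control shRNA (points) with its 95% confidence interval (lines) for the 10 enzymes, in order. Mthfd2 at 1.05 and Psat1 at -0.999 stand at the ends, and the interval of Shmt1 spans 0.

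Counted together, 7 of the 10 members rose, 2 fell (Psat1 and Aldh1l1) and 1 (Shmt1) did not pass. Of all 21042 genes tested, 24.8% rose and 27.3% fell. Among the 15677 genes that averaged 1 CPM or more, as every member did, 59.9% were called, 28.1% as higher and 31.8% as lower. The median log2 fold change of the members was 0.26, against 0.01 over all genes tested. In 9 members the groups did not overlap, as in 73.9% of all genes tested. With mitochondrial and the most abundant genes left out, the counts of members were again 7 and 2. Only Mthfd2 and Psat1 changed by about 2-fold, while the other 7 members called had absolute log2 fold changes from 0.22 to 0.56, all below the median of 0.58 for called genes. The biological coefficient of variation estimated from these libraries was 3.64%. When it was set to 0.2 instead, Psat1 (edgeR adjusted p = 0.00608) and Mthfd2 (0.0088) still passed and the other 8 members did not, with adjusted p-values from 0.214 for Phgdh upward.

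The rises and falls nearly cancelled in the summed level. The 10 transcripts summed to 584 and 564 CPM in the control and to 593 and 557 CPM in the Phf8 shRNA libraries, with overlapping groups. Within that sum, Phgdh held 24.3% and 23.5% of the members' reads in the control and 35.5% and 34.9% in the Phf8 shRNA libraries. Per kilobase of exon, Phgdh (55.2 ± 2.56 RPKM, SD, n = 2) and Psat1 (46.8 ± 0.420) led in the control, followed by Mthfd1 (22.1 ± 0.773), Aldh1l1 (9.54 ± 0.282) and Shmt2 (7.32 ± 0.457). Psph (5.78 ± 0.0976 RPKM) and Aldh1l2 (4.56 ± 0.279) came next, and Mthfd1l (1.63 ± 0.0381), Shmt1 (1.43 ± 0.0302) and Mthfd2 (0.575 ± 0.0206) were lowest. The libraries of neighbours in that order did not overlap. In the Phf8 shRNA group Phgdh still led at 81.4 ± 4.57 RPKM (SD, n = 2). Mthfd1 (27.3 ± 1.24 RPKM) stood above Psat1 (23.4 ± 1.26), and Shmt2 (9.51 ± 0.147) above Aldh1l1 (7.67 ± 0.665), so both pairs had changed places. The lengths count every annotated exon, used or not, which limits comparisons between genes.

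Ratios of 2 enzymes within a library do not depend on the scaling between libraries. Per kilobase, Phgdh had 1.21 and 1.15 times the level of Psat1 in the control libraries and 3.49 and 3.48 times in the Phf8 shRNA libraries. The ratio was thus 2.95 times higher with the Phf8 shRNA. Psph over Psat1 went from 0.124 and 0.123 to 0.286 and 0.297. Both ratios share Psat1, so its own fall enters each. The log2 fold change of Psat1 was -0.999, against 0.56 for Phgdh and 0.24 for Psph. Among pairs of a mitochondrial and a cytosolic enzyme, Shmt2 over Shmt1 was 4.84 and 5.44 in the control and 6.54 and 6.81 in the Phf8 shRNA libraries. Mthfd2 over Mthfd1 was 0.0261 and 0.0261 in the control and 0.0402 and 0.0478 in the Phf8 shRNA libraries. Aldh1l2 over Aldh1l1 was 0.489 and 0.467 in the control and 0.637 and 0.753 in the Phf8 shRNA libraries. In these 3 pairs the mitochondrial enzyme gained on the cytosolic one, by 1.30, 1.68 and 1.45 times. The ratio of Mthfd1l to Mthfd1, also a mitochondrial over a cytosolic enzyme, overlapped between the groups, at 0.0730 and 0.0743 against 0.0701 and 0.0748. Mthfd2l, the close relative of Mthfd2, was in none of these ratios. It stood at 3.78 and 3.56 RPKM in the control and 4.32 and 4.19 RPKM in the Phf8 shRNA libraries. Mthfd2 was lower, at 0.590 and 0.561 against 1.13 and 1.27 RPKM. The log2 fold change was 0.21 ± 0.07 (SE) for Mthfd2l and 0.31 ± 0.06 (SE) for Mthfd1. A gain on Mthfd1 like that of Mthfd2 was thus not seen for Mthfd2l, and the difference between Mthfd2l and Mthfd1 was not tested. An exact permutation test of 2 against 2 libraries cannot give a two-sided p below 0.333, and it gave 0.333 for each ratio except that of Mthfd1l to Mthfd1, where it gave 1.

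**Figure D3:**
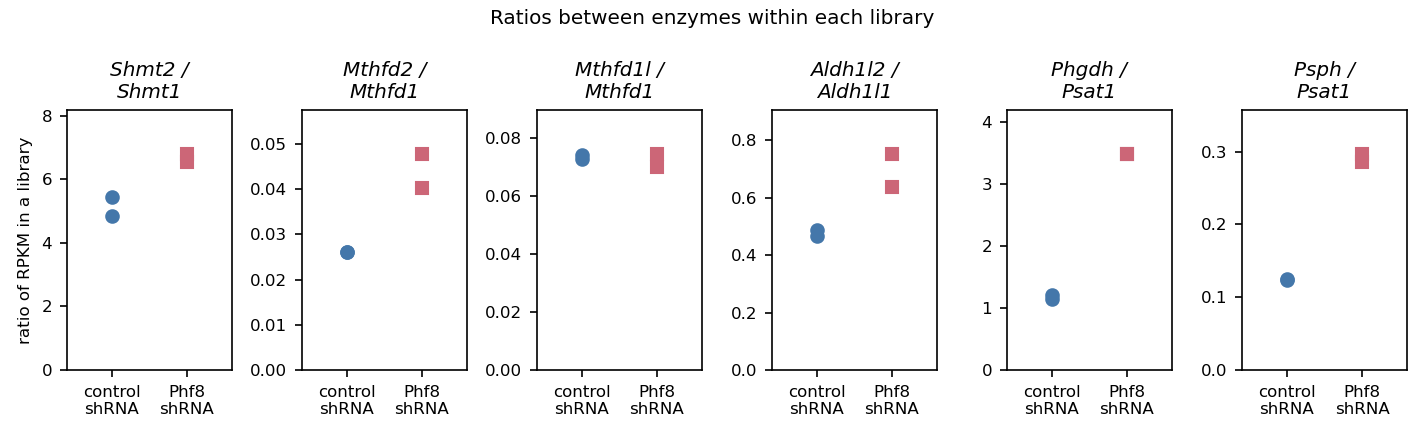
Ratio of RPKM between 2 enzymes in each control shRNA library (circles) and Phf8 shRNA library (squares), vertical axes from 0. The ratio of Phgdh to Psat1 goes from 1.21 and 1.15 to 3.49 and 3.48, and only Mthfd1l over Mthfd1 overlaps between the groups.

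Neighbouring pathways were described with lists of genes that exclude the 10 members. The counts of each list stand beside those of all genes tested, of which 24.8% rose and 27.3% fell. Among the other folate enzymes and carriers, 13 of 15 genes were tested, of which 2 rose and 4 fell (median log2 fold change 0.10). Folr1, a folate receptor, went from 2.75 and 2.96 CPM to 0.185 and 0.490 CPM. Its log2 fold change was -3.12 ± 0.26 (SE, edgeR adjusted p = 2.1e-31). Ggh, which trims the glutamate tail of folates, fell from 29.7 and 32.98 to 16.2 and 15.7 CPM (log2 fold change -0.97 ± 0.07 SE). Sardh, which yields a one-carbon unit from sarcosine, rose from 31.0 and 31.0 to 39.1 and 37.1 CPM. Mthfd2l, the close relative of Mthfd2, rose from 25.2 and 23.7 to 28.7 and 27.8 CPM (log2 fold change 0.21 ± 0.07 SE, edgeR adjusted p = 0.00422), a call lost with DESeq2 (adjusted p = 0.0526) and without control replicate 2 (edgeR adjusted p = 0.0828).

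Genes that use or carry serine and glycine went both ways, as did all genes tested, of which 24.8% rose and 27.3% fell. Of 12 tested genes of serine and glycine use, 3 rose and 5 fell (median -0.07). Gldc and Amt, subunits of the glycine cleavage system, rose with log2 fold changes of 0.39 ± 0.06 and 0.38 ± 0.06 (SE), whereas its other subunits Gcsh and Dld, named after their values were seen, fell by 0.14 and 0.22 on the log2 scale. Sptlc2, which joins serine to a fatty acid in sphingolipid synthesis, fell from 41.9 and 43.6 to 31.7 and 30.0 CPM, and Ptdss1, a phosphatidylserine synthase, fell from 104 and 102 to 84.9 and 79.7 CPM. Of 13 tested transporters, 5 rose and 6 fell (median 0.16). Slc38a1, a neutral amino acid carrier, fell from 1257 and 1248 to 602 and 594 CPM, and the related Slc38a3 rose from 50.02 and 49.1 to 96.3 and 105.6 CPM. Slc6a9, the glycine transporter GlyT1, rose from 12.02 and 10.3 to 30.3 and 30.4 CPM, with 30.2% of its exonic length overlapping genes on the opposite strand. Sfxn1, the mitochondrial serine carrier, rose from 96.0 and 96.4 to 163 and 144 CPM (log2 fold change 0.67 ± 0.06 SE, edgeR adjusted p = 3.97e-32).

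In the methionine cycle and transsulfuration list, 5 of 10 tested genes rose and 3 fell (median 0.12). Of all genes tested, 24.8% rose and 27.3% fell. Cbs, which joins serine to homocysteine, rose from 4.60 and 4.50 to 21.4 and 19.9 CPM, a log2 fold change of 2.18 ± 0.09 (SE, edgeR adjusted p = 4.69e-117). Mtr, the methionine synthase that takes its methyl group from folate, fell from 60.7 and 62.7 to 44.2 and 41.7 CPM. Mat2b and Ahcyl2 had log2 fold changes of -0.41 and 0.35. Of the 6 purine synthesis genes, whose pathway takes up one-carbon units, Pfas rose (log2 fold change 0.31 ± 0.06 SE), Paics fell (-0.14 ± 0.06 SE) and 4 did not pass. The call of Paics was lost with DESeq2 (adjusted p = 0.0516), with upper-quartile scaling (edgeR adjusted p = 0.308), without either control library (0.075 and 0.113) and without Phf8 shRNA replicate 2 (0.25).

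Glycolysis genes, of steps before and after the phosphoglycerate that serine is made from, went both ways. Of 17 tested, 4 rose and 9 fell, with a median of -0.19. Pfkp, a phosphofructokinase, fell from 101 and 98.4 to 10.5 and 9.89 CPM (log2 fold change -3.28 ± 0.07 SE). Pgam1, which consumes the phosphoglycerate that Phgdh also uses, fell from 25.3 and 23.7 to 12.05 and 11.9 CPM (log2 fold change -1.03 ± 0.08 SE, edgeR adjusted p = 9.25e-40). Ldha and Eno2 fell by 1.02 and 0.96 on the log2 scale. ATF4 is a transcription factor of amino acid stress whose known targets include Phgdh, Psat1, Shmt2 and Mthfd2. Of Atf4 and 24 other known targets, 14 rose, 3 fell and 8 did not pass (median 0.25). Over all genes tested, 24.8% rose and 27.3% fell. Those that fell were Asns and the tRNA synthetase genes Gars and Sars. Ddit3, Cebpb, Cebpg, Nupr1 and the tRNA synthetase genes Aars, Cars, Nars and Wars did not pass. These genes were named after their values were seen. Atf4 itself stood at 55.5 and 56.9 CPM in the control and at 71.4 and 68.3 CPM in the Phf8 shRNA libraries (log2 fold change 0.31 ± 0.06 SE, edgeR adjusted p = 1.38e-07). The amino acid transporters Slc7a11 and Slc7a5 rose from 106 and 104 to 360.0 and 376 CPM and from 70.4 and 63.3 to 209 and 199.7 CPM, and Vldlr and Chac1 rose with log2 fold changes of 1.51 and 0.84. Asns, the asparagine synthetase, named after its value was seen, fell by 0.30 on the log2 scale beside Psat1. S phase genes were mostly lower. Of 21 tested, 14 fell and 2 rose (median -0.50), with Mcm5 at 8.28 and 7.97 against 3.65 and 3.38 CPM and Uhrf1, Cdc6 and Chaf1a at log2 fold changes of -0.86, -0.91 and -0.91. Exons of Chaf1a overlapped Ubxn6, on the opposite strand, over 52.5% of their length. Tyms, the thymidylate synthase, named after its value was seen, had a log2 fold change of 0.04 ± 0.10 (SE, edgeR adjusted p = 0.76).

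**Figure D4:**
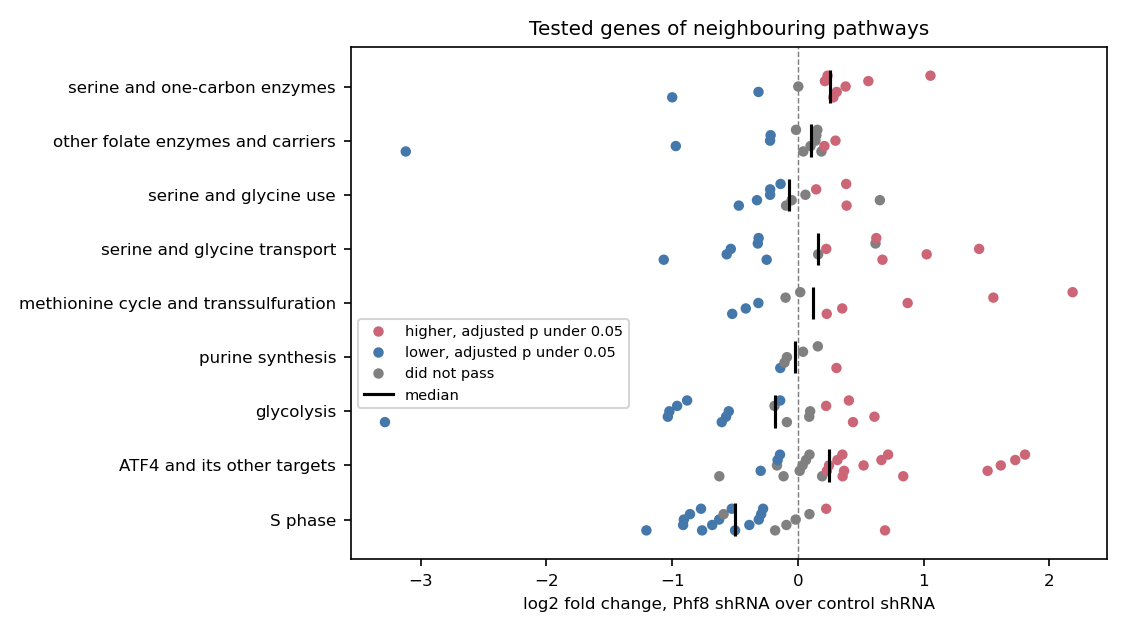
Log2 fold change of Phf8 shRNA over control shRNA for the tested genes of each list (points, spread vertically only for legibility), with the list median as a bar. The members have a median of 0.26, glycolysis one of -0.19 and S phase one of -0.50, and each list plotted here holds genes on both sides of 0.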

How the data were processed

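RNA of 4 samples was sequenced after ribosomal RNA depletion with a stranded kit, per the labels' protocols. HISAT2, HTSeq and DESeq2 and the mm10 build are named in the submitters' processing notes, without versions or settings. The deposited files hold whole-number counts of reads for 55421 genes, read as raw counts because their totals differ (36839530 to 44724759). Symbols were paired with 55154 identifiers, and GENCODE M21 gave exonic lengths and overlaps. The test was edgeR 4.0.16 (R 4.3.3), quasi-likelihood, two-sided, on all 4 libraries with filterByExpr, TMM scaling and Benjamini-Hochberg adjustment over all genes tested. A gene was called at an adjusted p under 0.05, whatever its fold. As 52.1% of genes differed, directions of small changes depend on the scaling. The fit was tested on simulated counts. Alternatives were 3 scalings, DESeq2 1.42.0, 2 filters, a replicate block, each library left out, abundant genes left out, a set spread and a stricter threshold.

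The members and lists were chosen with earlier results of these data known. From each pathway list, the named genes are the called ones that changed most (up to 4, by absolute log2 fold change), averaged 1 CPM or more and had groups that did not overlap, together with Phf8, Atf4, Mthfd2l and astrocyte markers. A gene that this rule takes is not reported here. Promoters came from RefSeq (GRCm38.p6). Similar transcripts were sought with blastn (90% identity over 200 bases).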

Additional observations from a re-analysis of the deposited data

How the results depend on the processing

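The 10 members were refitted under 14 alternatives. Of the 140 values, 122 kept their direction and their side of the threshold, 13 no longer passed and 5 changed sign, all 5 of Shmt1, which passed in none. The log2 fold change of Shmt1 was -0.0501 with the library size alone, -0.0088 with no low-count filter, -1e-04 without mitochondrial and abundant genes, -0.0143 without control replicate 2 and -0.0428 to 0.049 over the fits without Phf8 shRNA replicate 1 and without Phf8 shRNA replicate 2. Psat1 (-1.05 to -0.92) and Mthfd2 (0.98 to 1.14) passed under all 14. With each library left out in turn, 5 to 7 members were higher and 2 lower, their median ran from 0.24 to 0.28, and 9053 to 10235 genes were called in all. Upper-quartile scaling moved the median of the members to 0.34 and that of all genes by 0.08, and higher genes then made up 58.0% of calls, against 40.3% with the library size alone.

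A coefficient of variation set to 0.2 left 3305 genes called in all, and 1 member higher and 1 lower. It left 0 higher and 2 lower other folate genes, 0 and 0 of serine and glycine use, 2 and 1 of transport, 2 and 0 of the methionine cycle, 0 and 0 of purine synthesis, 0 and 5 of glycolysis, 4 and 0 of ATF4 targets and 0 and 4 of S phase. The set spread is wider than the estimated one by construction. With it, the fall of Phf8 itself did not pass either (log2 fold change -0.30, edgeR adjusted p = 0.639). Other folate genes were 4 higher and 2 lower with upper-quartile scaling, 1 and 2 with DESeq2, and 1 to 4 and 2 to 4 with a library left out. Purine genes were 2 higher and 0 lower with upper-quartile scaling, 2 lower with the library size alone, 0 lower with DESeq2 or at an adjusted p under 0.01, and 0 to 1 lower with a library left out. ATF4 targets had 1 lower with upper-quartile scaling and 1 to 4 with a library left out. S phase genes higher were 1 with the library size alone, with no filter and at an adjusted p under 0.01, 0 with DESeq2, and 0 to 2 with a library left out. The cause of these shifts was not tested. Of 517 values of the 37 other named genes, 488 kept direction and side and 29 no longer passed. With the replicate number as a block, 10929 genes were called, against 10965 without, and the members kept 7 higher and 2 lower. Deviations from the group mean of same-numbered libraries did not correlate (r = -0.001). With 2 libraries per group, both numbers give the same r by construction. Genes with few reads weigh as much in it as others, so it cannot show that same-numbered libraries share nothing. The numbers were treated as names only. Depth limits Mthfd2 and Shmt1 most, with 80 to 247 reads per library.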
